A study of Mus musculus with 10 samples.

Results

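The transcriptome of control liver endothelium was described from the 5 libraries titled as controls, out of 10 libraries of mouse hepatic endothelial cells in the series. These controls carry the genotype label WT. The other 5 libraries, labelled Alk1-HEC-KO with the genotype label KO, were not used here. Per the labels' protocol, non-parenchymal liver cells were taken from a Nycodenz density gradient, and endothelial cells were then purified with magnetic MicroBeads against CD146, the protein encoded by Mcam. The sources used here do not give strain, age or sex, or any allele or agent that the controls shared with the other group. Nor do they tie a library to a single animal, so the spread given below is that between libraries and may be technical. Levels are the authors' deposited TPM values, which divide the reads of a gene by transcript length and scale each library to 1000000, so they can be set side by side between genes. Values are given as mean ± SD over the 5 libraries (n = 5), and no test between groups was made, because no groups were compared.

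Liver sinusoidal endothelial cells line the capillaries of the liver lobule. They lack a continuous basement membrane, are pierced by fenestrae and clear macromolecules from blood through scavenger receptors, lectins and Fc receptors that feed a large endosomal and lysosomal system. Endothelium near the central vein secretes Wnt ligands and R-spondin that set the metabolic zones of hepatocytes, and sinusoidal endothelium is a main source of the BMP ligands that control hepcidin. Kupffer cells, the resident macrophages, sit inside the same sinusoids, and hepatocytes lie directly behind them.

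The 5 libraries held 23508079 to 23602771 estimated counts each. Genes with a mean of at least 1 TPM numbered 13848 of 55385 (25.0%), genes with at least 10 TPM 8304 (15.0%) and genes with at least 100 TPM 1524 (2.75%). Across genes with a mean of at least 1 TPM, the Pearson correlation of log2(TPM + 1) between pairs of libraries ran from 0.966 to 0.975. As a check for a library deposited more than once, the counts of each pair were compared, and their chi-square per degree of freedom ran from 15.3 to 32.6, so no library repeated another. A few measures set libraries apart. Controls 1, 3 and 5 held transcripts of pancreatic digestive enzymes, controls 2 and 4 had the highest hepatocyte transcripts, control 3 the highest macrophage transcripts, and control 4 the highest mitochondrial share. Control 1 was the highest library for 42.5% and control 4 the lowest for 44.9% of the 9590 protein-coding genes with a mean of at least 5 TPM, and counts of genes highest or lowest in a library are read against such shares. The main sums and counts that rest on these libraries are given with and without them.

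The endothelial label was checked with 5 marker genes. Clec4g, a lectin of sinusoidal endothelium (chromosome 8, 3707064 to 3720651, minus strand, GRCm38), stood at 6076, 7113, 7543, 7049 and 6755 TPM in controls 1 to 5 and ranked 14 among all genes. Stab2, the scavenger receptor stabilin-2 (chromosome 10, 86841198 to 87008025, minus strand), stood at 949, 923, 780, 894 and 858 TPM and ranked 164. Pecam1, the adhesion molecule CD31 (chromosome 11, 106654217 to 106750628, minus strand), stood at 707, 739, 693, 712 and 802 TPM and ranked 200. All 3 endothelial markers were thus at a like level in every library, with coefficients of variation (CV, the SD as a percent of the mean) of 5.91 to 7.87%. Alb, the hepatocyte gene for serum albumin (chromosome 5, 90460897 to 90476602, plus strand), stood at 352, 597, 272, 488 and 229 TPM. Clec4f, a lectin of Kupffer cells (chromosome 6, 83644542 to 83656187, minus strand), stood at 164, 234, 419, 134 and 266 TPM. Both markers of other cells were present in every library and varied more, with CVs of 39.5% for Alb and 45.8% for Clec4f. The ratio of Clec4g to Alb ran from 11.9 in control 2 to 29.5 in control 5, and that of Clec4g to Clec4f from 18.0 in control 3 to 52.7 in control 4. Alb was above Clec4f in 3 of 5 libraries, so those markers had no fixed order. In bulk RNA, fewer cells of a type and less RNA per cell cannot be told apart.

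The sequence just before the start of 4 of these markers is shown, because these genes define the endothelial, hepatocyte and macrophage signals described below. The windows come from RefSeq on GRCm38.p6 and are printed 5′ to 3′ on the gene's strand, up to the RefSeq start or the GENCODE gene boundary, whichever came first. Pecam1 has no entry in the table used. Capitals mark matches on either strand to any of 4 motifs. The first is AGGAAG, the core that ETS transcription factors bind. A motif of the zinc finger factors led by Gata4 was searched as AGATAA. For the hepatocyte factor HNF1, a core of its sites was searched as GTTAAT. The box found near many regulated starts was searched as TATAAA. The intervals are chr8:3720652-3720901 for Clec4g, chr10:87008026-87008192 for Stab2, chr5:90460620-90460869 for Alb and chr6:83656188-83656366 for Clec4f.
Clec4g: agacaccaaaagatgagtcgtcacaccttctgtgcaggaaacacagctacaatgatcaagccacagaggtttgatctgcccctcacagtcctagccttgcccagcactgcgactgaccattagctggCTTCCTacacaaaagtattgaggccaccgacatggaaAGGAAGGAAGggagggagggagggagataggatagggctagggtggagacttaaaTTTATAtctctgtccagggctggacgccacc
Stab2: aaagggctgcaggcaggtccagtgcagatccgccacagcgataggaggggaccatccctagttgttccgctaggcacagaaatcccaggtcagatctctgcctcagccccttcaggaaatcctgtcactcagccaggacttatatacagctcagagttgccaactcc
Alb: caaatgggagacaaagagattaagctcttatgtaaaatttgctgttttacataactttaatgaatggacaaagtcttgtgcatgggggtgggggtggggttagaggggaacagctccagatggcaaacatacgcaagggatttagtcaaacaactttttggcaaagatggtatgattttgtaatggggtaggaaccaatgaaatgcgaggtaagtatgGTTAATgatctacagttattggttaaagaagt
Clec4f: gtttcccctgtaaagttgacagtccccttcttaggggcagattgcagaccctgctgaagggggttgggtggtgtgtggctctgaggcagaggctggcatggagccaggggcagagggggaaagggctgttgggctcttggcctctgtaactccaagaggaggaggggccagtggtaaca

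The 250-base window of Clec4g held 3 ETS core matches, whose first bases lay 123, 86 and 82 bases before the start. The last 2 of them overlap. A TATA match lay 31 bases before the start but on the opposite strand, so its printed letters are TTTATA. The Stab2 window held 1 ETS core match 40 bases before the RefSeq start, which lies inside the GENCODE gene and is not printed. Alb held 1 HNF1 core match 32 bases before its RefSeq start, and Clec4f none of the 4 motifs. The Alb window ends at 90460869, short of the GENCODE gene start at 90460897, and the bases between were not searched. Of 32851 promoter windows of this length, 29.5% held the ETS core, 9.99% the GATA motif, 6.43% the HNF1 core and 12.4% the TATA box. Among the gene lists used below, the ETS core was in 10 of 21 windows of pan-endothelial genes, 5 of 10 of sinusoidal genes, 8 of 12 of Kupffer cell genes and 2 of 16 of hepatocyte genes. The HNF1 core was in 5 of 16 hepatocyte windows and in 0 of 10 sinusoidal windows. A match is a run of letters and was not measured as a bound site.

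Among nuclear protein-coding genes, the transcripts at the top of these libraries included those of secreted carriers, class I antigen presentation, sinusoidal clearance and vascular identity. Leaving out mitochondrially encoded and ribosomal protein genes, Selenop, the selenium carrier selenoprotein P, was highest at 19369, 18402, 16118, 17826 and 18585 TPM, above Apoe in 5 of 5 libraries. Apoe, the lipid carrier apolipoprotein E, averaged 9413 ± 464 TPM, and B2m, the light chain of class I molecules, 9279 ± 621 TPM. Apoe was above B2m in 3 of 5 libraries, so their order did not exceed the spread. Clec4g (6907 ± 543 TPM) and Igfbp7, a secreted binding protein of vascular matrix (6887 ± 298 TPM), followed, with Clec4g higher in 2 of 5 libraries. Both were below B2m in 5 of 5. Aqp1, a water channel, averaged 5539 ± 284 TPM and Ifitm2, an antiviral membrane protein, 5390 ± 256 TPM. Fcgr2b, the Fc receptor through which sinusoidal cells take up small immune complexes, averaged 4202 ± 434 TPM, above H2-K1 (3411 ± 248 TPM) in 5 of 5 libraries. Gpihbp1, which holds lipoprotein lipase on capillary endothelium, averaged 3393 ± 92.2 TPM, Eng, the TGF-beta and BMP co-receptor endoglin, 2840 ± 240 TPM, and Egfl7, a secreted endothelial protein, 2174 ± 131 TPM. Housekeeping or broadly expressed genes among the highest 20 included Eef1a1, Tpt1, Itm2b, Ftl1, Tmsb4x, H2-D1 and Hspa8, between 2075 and 5966 TPM. Over all genes, the 10 highest of a library held 13.5% ± 1.29 of its TPM, the 100 highest 36.2% ± 2.18 and the 1000 highest 68.2% ± 1.66. These shares include mitochondrially encoded genes, ribosomal protein genes and pseudogenes. By mean TPM over all genes, mt-Co1 ranked 1, mt-Atp8 ranked 2 and Selenop ranked 3.

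**Figure D1:**
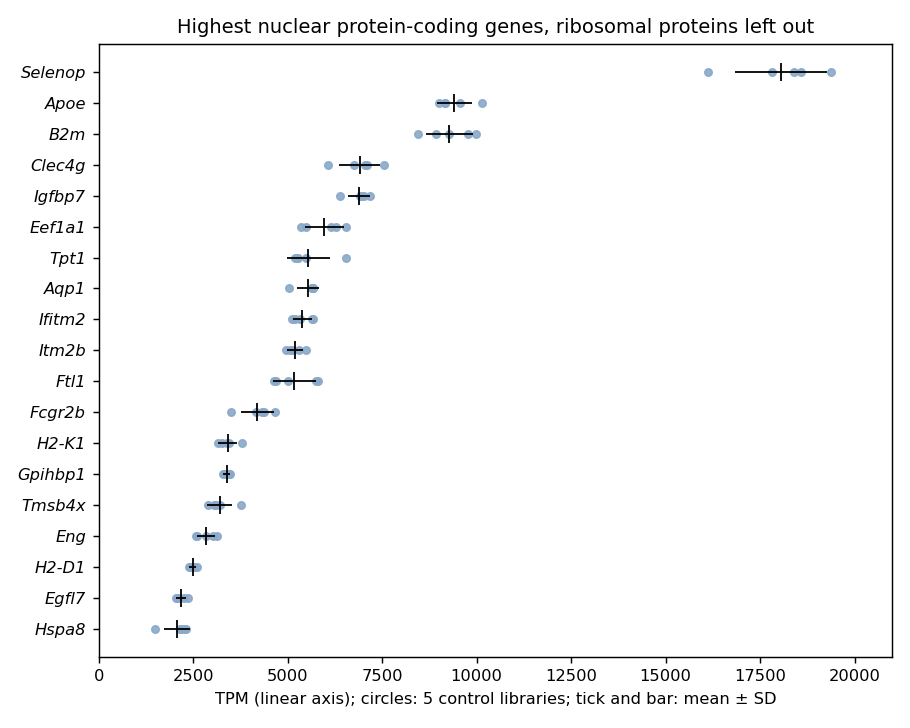
TPM of 19 of the 20 nuclear protein-coding genes with the highest mean, ribosomal proteins left out; circles are the 5 control libraries, the tick and bar are the mean ± SD (n = 5), on a linear axis. Selenop stands apart between 16118 and 19369 TPM, while most neighbours further down overlap.

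Part of the top was mitochondrial. Transcripts of the mitochondrial genome held 11.1% ± 1.63 of TPM, but 4.91% ± 0.874 of estimated counts. All 13 mitochondrially encoded mRNAs were highest in control 4, where the share of TPM was 13.9%. Of protein-coding genes with a mean of at least 5 TPM, 4.33% were highest there. Their sum averaged 106270 TPM, and 99600 TPM without control 4. Among them were mt-Co1 (18758 ± 2471 TPM) and mt-Atp6 (13582 ± 2582 TPM). A further 4.36% ± 0.835 of TPM was assigned to 5 pseudogenes in 1 stretch of nuclear chromosome 1, from 24612775 to 24616197 on the minus strand. Their annotated transcripts matched mitochondrial genes nearly letter for letter: Gm10925 matched mt-Atp6 over 678 bases, Gm28437 mt-Co3 over 783 bases and Gm28661 mt-Co2 over 681 bases, each at 100% identity. Gm28438 matched mt-Nd3 with 1 mismatch in 345 bases, and Gm29216 matched mt-Co1 with 1 mismatch in 483 bases. Reads from such copies cannot be told apart, so the values of these 5 pseudogenes and of their mitochondrial partners are uncertain. Together the mitochondrial genome and the 5 pseudogenes held 15.4% ± 2.24 of TPM.

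Genes of sinusoidal identity were high as a group. All 17 members of that list averaged at least 10 TPM, a level that 36.3% of protein-coding genes reached, and 16 of 17 averaged at least 100 TPM, which 6.66% of protein-coding genes reached. Counts at these levels in the lists below are to be read against the same shares. Their median level was 881 TPM. Their summed level was 23654, 24166, 22969, 23873 and 24698 TPM, a CV of 2.68%, so the libraries were nearly alike in it. Below Clec4g and Fcgr2b stood Ehd3, a membrane-trafficking ATPase (2072 ± 237 TPM), Oit3 (1769 ± 79.7 TPM), Dnase1l3, a secreted nuclease (1605 ± 92.6 TPM), and Stab1, the paralog of Stab2 (1298 ± 76.7 TPM). Stab1 was above Stab2 in 5 of 5 libraries, by 1.36 to 1.69 times. Mrc1, the mannose receptor, averaged 906 ± 54.1 TPM and was above Stab2 in 3 of 5. Maf, a transcription factor, averaged 581 ± 24.4 TPM, Bmp2 703 ± 72.2 TPM and F8, coagulation factor VIII, 285 ± 31.0 TPM. The widest member was Lyve1, a hyaluronan receptor, at 583, 332, 488, 351 and 501 TPM. It was lowest in controls 2 and 4. Cd209b, a lectin, was the lowest member at 24.4 ± 2.51 TPM.

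Receptors for uptake overlapped with that list and added Fc and lipid receptors. Of 18 scavenger and endocytic receptors, 16 averaged at least 10 TPM and 12 at least 100 TPM. Fcgrt, the neonatal Fc receptor that recycles IgG and albumin, stood at 1252, 1373, 1206, 1281 and 1189 TPM, and Fcgr2b was 2.90 to 3.91 times higher in each library. Cd36, a fatty acid receptor, stood at 583, 397, 592, 438 and 769 TPM and was again lowest in controls 2 and 4. The lowest member was Asgr1, the hepatocyte asialoglycoprotein receptor, at 5.77, 12.2, 5.64, 13.2 and 2.90 TPM, highest in controls 2 and 4 as other hepatocyte genes were. Of 25 genes of clathrin uptake and the lysosome, the machinery behind the receptors, 25 averaged at least 10 TPM and 19 at least 100 TPM. They ranged from Eea1, an early endosome tether, at 15.1 ± 2.54 TPM to Ehd3. Psap, a precursor of lysosomal activators, averaged 1509 ± 69.0 TPM, and the proteases Ctsl and Ctsd averaged 1428 ± 82.1 and 1273 ± 50.1 TPM. Ctss, a cathepsin that macrophages also use, stood at 110, 153, 252, 88.4 and 168 TPM, in which control 3 was highest and control 4 lowest. The macrophage list described below was ordered likewise at its ends, and its part in Ctss was not tested.

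**Figure D2:**
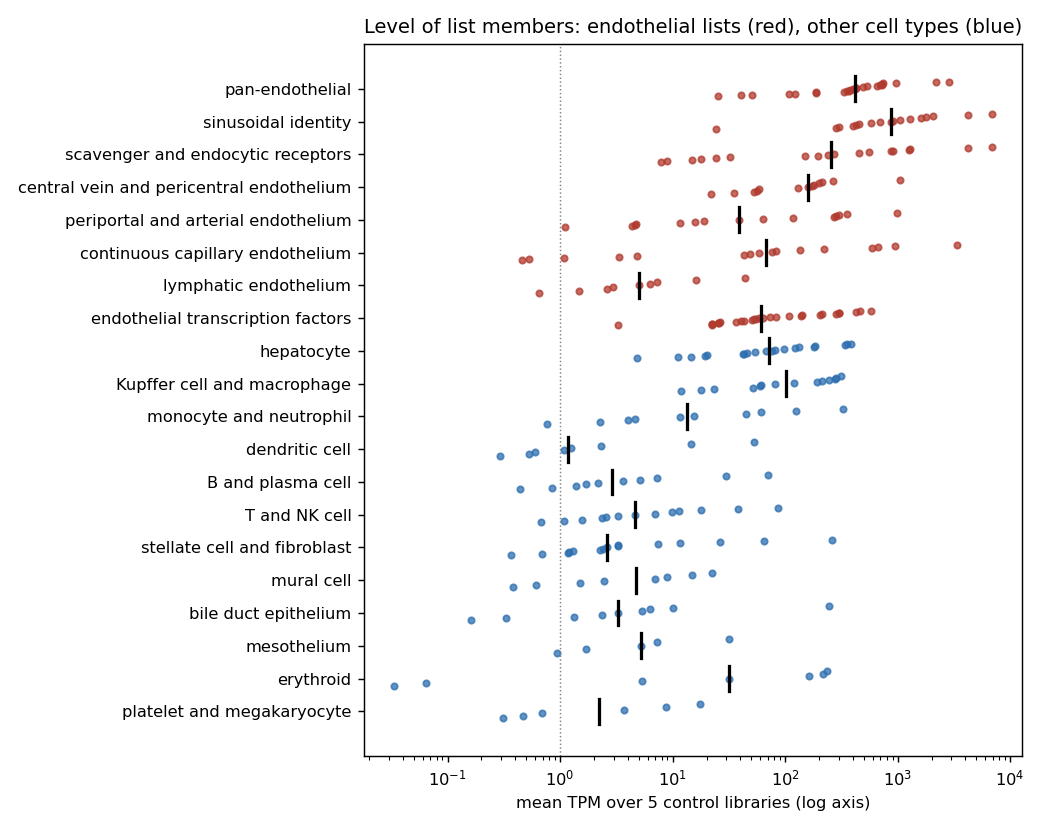
Mean TPM (log axis, n = 5 libraries) of each member of the endothelial lists (red) and of the lists for other cell types (blue); black bars are list medians and the dotted line marks 1 TPM. The sinusoidal list has the highest median, 881 TPM, and the lymphatic list is near 5.03 TPM.

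Pan-endothelial genes were present without exception in the list used: 25 of 25 averaged at least 10 TPM and 22 of 25 at least 100 TPM, with a median of 420 TPM and a summed level of 14379 ± 778 TPM. Kdr, the VEGF receptor VEGFR2, stood at 1031, 961, 825, 999 and 997 TPM. Cdh5, VE-cadherin of endothelial junctions, stood at 753, 675, 627, 671 and 766 TPM, and was below Pecam1 in 4 of 5 libraries. Control 3 was the lowest library for 16 of these 25 genes, against 29.0% of protein-coding genes with a mean of at least 5 TPM. Mcam, which encodes the antigen of the purification beads, stood at 223, 180, 205, 142 and 182 TPM and was thus detected in every library at a level below most of the list. Of 14 junction genes 13 averaged at least 10 TPM. Esam and Cldn5, components of endothelial junctions, averaged 739 ± 34.0 and 723 ± 75 TPM, whereas Ocln, occludin, averaged 1.23 ± 0.224 TPM.

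Genes that mark different stretches of the hepatic vasculature were found side by side. The central vein and pericentral list summed to 2598 ± 141 TPM and the periportal and arterial list to 2486 ± 206 TPM, and the first was higher in 4 of 5 libraries, by at most 1.13 times. Each sum owes a large part to a single gene, Fabp4 or Ltbp4. The median members lay further apart, at 158 TPM in the first list and 39.1 TPM in the second. All 13 central vein genes averaged at least 10 TPM. Fabp4, a fatty acid binding protein, averaged 1053 ± 54.1 TPM, Ptgs1, cyclooxygenase 1, 211 ± 16.6 TPM, and Kit, a receptor tyrosine kinase, 198 ± 33.8 TPM. Thbd, thrombomodulin, stood at 161, 241, 160, 115 and 115 TPM, highest in control 2. Of the 15 periportal and arterial genes 11 averaged at least 10 TPM. Ltbp4, a latent TGF-beta binding protein, averaged 990 ± 56.4 TPM, Clu, clusterin, 304 ± 46.0 TPM, Ntn4, a laminin-related netrin, 285 ± 53.9 TPM, and Dll4, a Notch ligand, 118 ± 17.1 TPM. Gja4, the gap junction protein connexin 37, stood at 285, 728, 265, 265 and 240 TPM. Control 2 stood far above the other 4 libraries, which lay between 240 and 285 TPM. Sema3g, a semaphorin of arteries, was lowest at 1.10 ± 0.467 TPM.

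Continuous capillary genes spanned a wide range of levels. Of 16 genes, 11 averaged at least 10 TPM and 6 at least 100 TPM. Beside Gpihbp1, the high members were Ly6a, a surface antigen (944 ± 171 TPM), Plvap, the diaphragm protein of endothelial openings (669 ± 28.3 TPM), and Cavin2 of caveolae (597 ± 84.9 TPM). Aplnr, the apelin receptor, and Car4, a membrane carbonic anhydrase of lung capillaries, averaged 0.462 ± 0.353 and 0.526 ± 0.167 TPM. Esm1, which marks endothelium under VEGF signalling, stood at 102, 16.0, 73.3, 23.2 and 78.9 TPM. Its low libraries were controls 2 and 4, and the libraries with pancreatic enzyme transcripts, controls 1, 3 and 5, were the high ones, a link that was not tested. Ly6c1 stood at 20.9, 51.4, 35.8, 30.1 and 107 TPM, highest in control 5. The near-identical Ly6c copies make that value uncertain. Lymphatic genes were low: 8 of 9 averaged at least 1 TPM, as 55.3% of protein-coding genes did, and 2 of 9 at least 10 TPM. Ccl21a, a chemokine of lymphatic vessels, averaged 44.2 ± 14.4 TPM, while Prox1, the defining lymphatic transcription factor, averaged 1.46 ± 0.337 TPM and Pdpn, podoplanin, 2.92 ± 0.826 TPM.

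Transcription factors of endothelium followed. Of 28 members 27 averaged at least 10 TPM and 11 at least 100 TPM. Maf led, above Gata4 (299 ± 22.5 TPM), a determinant of sinusoidal fate, in 5 of 5 libraries. Klf2, induced by shear stress, stood at 496, 513, 447, 542 and 336 TPM and was 7.39 to 10.5 times the level of its relative Klf4. Sox18 averaged 422 ± 53.3 TPM and Elk3, an ETS factor, 302 ± 40.0 TPM. Erg, the ETS factor common to endothelium, averaged 108 ± 15.7 TPM. Gata6 was the lowest member at 3.28 ± 0.692 TPM.

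Levels of BMP and TGF-beta signalling genes differed widely between paralogs. Among 11 receptors 7 averaged at least 10 TPM. Eng, at 3036, 2589, 2616, 2839 and 3119 TPM, far exceeded the signalling receptors Tgfbr2 (142 ± 21.1 TPM) and Acvrl1 (74.8 ± 8.13 TPM). Acvrl1, which encodes ALK1, the gene targeted in the other group of the series, was above Bmpr2 (51.6 ± 6.32 TPM) and Acvr1 (48.3 ± 3.38 TPM) in 5 of 5 libraries. The type I receptors Bmpr1a and Bmpr1b were low at 1.37 ± 0.322 and 0.0269 ± 0.0182 TPM. Among 12 ligands 5 averaged at least 10 TPM, near the 36.3% of protein-coding genes that did. Bmp2 stood at 719, 780, 584, 724 and 709 TPM, and Bmp6, its partner in hepcidin control, at 226, 198, 224, 224 and 279 TPM. Bmp2 was the higher in each library, by 2.54 to 3.94 times. Tgfb1 averaged 388 ± 48.3 TPM. Gdf2 and Bmp10, which encode the ALK1 ligands BMP9 and BMP10, averaged 2.44 ± 1.39 and 0.277 ± 0.151 TPM and were both highest in control 4. The summed stellate cell list described below was also highest there, with a range of 329 to 471 TPM, and its part in these 2 genes was not tested. Of 18 SMADs, ID factors and BMP inhibitors 12 averaged at least 10 TPM. Id3, a target of BMP signalling, averaged 642 ± 73.7 TPM, Id2 231 ± 39.5 TPM, Id1 116 ± 17.7 TPM and Smad6, an inhibitory SMAD, 164 ± 10.8 TPM. Smad9 averaged 0.470 ± 0.0978 TPM, and Grem1, a secreted BMP inhibitor, 0.0243 ± 0.0287 TPM.

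Among Wnt ligands, R-spondins and Hgf, 4 of 13 genes averaged at least 10 TPM, near the 36.3% of protein-coding genes that did. Wnt2 stood at 269, 291, 230, 293 and 251 TPM, Rspo3 at 146, 125, 128, 121 and 129 TPM and Wnt9b at 69.8, 76.6, 42.0, 46.4 and 47.9 TPM. This order held in 5 of 5 libraries. Hgf, hepatocyte growth factor, averaged 24.6 ± 6.05 TPM. The next member, Rspo1, averaged 2.36 ± 1.33 TPM, and Wnt3a, Rspo2 and Rspo4 were listed at 0 in each library.

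Of 15 VEGF and angiopoietin genes 11 averaged at least 10 TPM, against 36.3% of protein-coding genes. Kdr was 4.59 to 5.55 times the level of Flt1 (190 ± 9.57 TPM), which encodes VEGFR1, and Flt4, which encodes VEGFR3, averaged 426 ± 52.4 TPM. Tie1 and Tek, the receptors of the angiopoietin system, averaged 420 ± 20.9 and 380 ± 33.3 TPM. Nrp1 (384 ± 47.7 TPM) was above Nrp2 in 5 of 5 libraries. The ligands Vegfa, Angpt2 and Vegfd averaged 15.2 ± 3.89, 22 ± 6.16 and 0.528 ± 0.186 TPM. In the Notch list 10 of 16 genes averaged at least 10 TPM. Notch1 (71.9 ± 16.6 TPM) and Notch4 (60.0 ± 5.16 TPM) were the main receptors, with Notch1 higher in 4 of 5 libraries. Dll4 was 2.87 to 6.51 times the level of Dll1, and the targets differed, with Hes1 at 133 ± 16.2 TPM and Hey2 at 0.125 ± 0.0513 TPM.

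Of 15 haemostasis genes 11 averaged at least 10 TPM, against 36.3% of protein-coding genes. They were led by F2r, a thrombin receptor (363 ± 22.4 TPM). Tfpi, which inhibits tissue factor, stood at 362, 322, 310, 331 and 403 TPM, Pros1, protein S, at 341, 324, 270, 288 and 302 TPM and F8 at 323, 271, 243, 286 and 304 TPM. F8 was above Vwf (173 ± 16.7 TPM), the gene for its plasma carrier, in 5 of 5 libraries. F3, tissue factor, averaged 1.44 ± 0.164 TPM. Of 17 vasoactive genes 12 averaged at least 10 TPM. Ramp2 and Calcrl, which together form an adrenomedullin receptor, averaged 1559 ± 100 and 292 ± 39.5 TPM. Nos3, endothelial nitric oxide synthase, stood at 104, 95.9, 71.4, 62.6 and 75.5 TPM, and Ddah2, which degrades inhibitors of that enzyme, was 2.08 to 3.20 times higher.

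Immune recognition genes were led by class I presentation. Of 24 genes of antigen presentation and adhesion 18 averaged at least 10 TPM and 14 at least 100 TPM. Class II genes were lower: Cd74, the invariant chain, stood at 378, 402, 543, 331 and 398 TPM, and H2-Aa averaged 151 ± 25.1 TPM. Both were highest in control 3 and lowest in control 4, as the macrophage list was, and the part of macrophages in them was not tested. Of the 22 list members with a mean of at least 5 TPM, control 2 was the highest library for 8, control 3 for 6, control 4 for 4, control 1 for 3 and control 5 for 1. Icam1, an adhesion molecule, was at 115, 337, 130, 107 and 103 TPM, Sele, E-selectin, at 2.34, 16.7, 3.98, 1.57 and 2.56 TPM and Cxcl10 at 87.6, 214, 85.3, 98.8 and 63.9 TPM. In these 3 genes, of which Cxcl10 was picked with its values in view, control 2 was the highest library. Of the costimulatory genes, Cd86 averaged 5.39 ± 2.01 TPM and Cd80 0.982 ± 0.318 TPM. Among 17 pattern recognition genes 9 averaged at least 10 TPM, against 36.3% of protein-coding genes. Ly96, the MD-2 partner of TLR4, averaged 108 ± 3.77 TPM, Tlr4 itself 16.2 ± 1.21 TPM and Tlr3 38.3 ± 3.88 TPM. Tlr5 and Tlr9 averaged 0.209 ± 0.145 and 0.335 ± 0.118 TPM.

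Hepatocyte transcripts were present in every library at uneven levels. The 20 genes of the list used summed to 1608, 3581, 1732, 3415 and 1052 TPM in controls 1 to 5, or 2278 ± 1144 TPM. That is 0.228% of all TPM, and the sinusoidal sum was 6.75 to 23.47 times higher. The list is only a part of hepatocyte transcripts: the Mup family given below averaged 0.551% of TPM, more than the list. The share and the ratios therefore do not measure all hepatocyte transcripts. Of 20 genes 19 averaged at least 5 TPM, and 13 of those 19 had a CV of at least 50%, whereas 1.95% of protein-coding genes with a mean of at least 5 TPM did. Without control 5, 10 of the members had such a CV, and 4 did without controls 1, 3 and 5. The latter leaves only controls 2 and 4, where the hepatocyte sums were highest, so that 4 cannot be set against the 13. Controls 2 and 4 were the highest library for 12 and 6 of the 19, and control 5 the lowest for 17. Of protein-coding genes with a mean of at least 5 TPM, 19.4% and 4.33% were highest in controls 2 and 4, and 9.69% were lowest in control 5. Apoa2, an apolipoprotein of HDL, stood at 202, 529, 213, 670 and 94.7 TPM and Cyp2e1, a cytochrome P450 of pericentral hepatocytes, at 64.9, 221, 69.5, 271 and 34.2 TPM. In these genes controls 2 and 4 lay apart from the other 3. The urea cycle enzyme Ass1 did not share this order, at 86.1, 74.4, 66.7, 49.6 and 59.3 TPM. Cps1, another enzyme of that cycle, stood at 4.10, 11.2, 3.55, 3.78 and 1.65 TPM, high in control 2 but not in control 4. The Mup genes, which encode major urinary proteins secreted by hepatocytes, were again high in controls 2 and 4, at a higher level. The 22 of them summed to 3221, 9385, 3492, 10200 and 1247 TPM. Values of single Mup genes are uncertain, since their copies are near-identical. Without control 2 the hepatocyte sum averaged 1952 TPM, without control 4 it averaged 1993 TPM, and without controls 1, 3 and 5 it averaged 3498 TPM.

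Macrophage transcripts moved as a block with another order of libraries. The Kupffer cell and macrophage list summed to 1338, 1975, 3405, 1070 and 2007 TPM, or 1959 ± 904 TPM, and averaged 1597 TPM without control 3. All 14 members averaged at least 10 TPM, all 14 were highest in control 3 and all 14 were lowest in control 4, with ratios between those libraries of 2.91 to 3.67. Of protein-coding genes with a mean of at least 5 TPM, 12.2% were highest in control 3 and 44.9% lowest in control 4. C1qb, a complement subunit, stood at 205, 319, 579, 178 and 299 TPM, Lyz2, lysozyme, at 194, 291, 497, 159 and 288 TPM and Timd4, a receptor of resident Kupffer cells, at 9.04, 12.6, 19.6, 6.72 and 11.9 TPM. Hepatocyte and macrophage sums therefore did not share an order: the first was higher in 3 of 5 libraries, with ratios from 0.509 in control 3 to 3.19 in control 4. Haemoglobin transcripts followed the macrophage order at both ends. Hba-a2 stood at 206, 239, 389, 124 and 213 TPM and Hbb-bs at 186, 207, 374, 118 and 200 TPM, with near-identical copies that make single values uncertain. Slc4a1, an anion exchanger of the red cell membrane, averaged 0.0334 ± 0.0158 TPM.

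**Figure D3:**
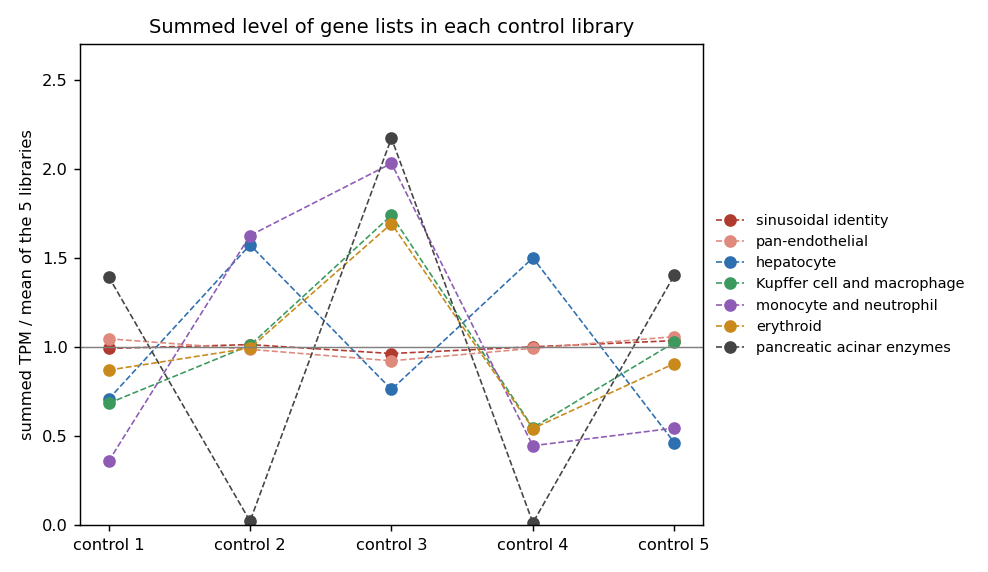
Summed TPM of 7 gene lists in each control library, divided by the mean of the 5 libraries; dashed lines only link the points of a list. The endothelial lists stay near 1, whereas the hepatocyte list is high in controls 2 and 4, the macrophage and erythroid lists in control 3, and the pancreatic list in controls 1, 3 and 5.

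Neutrophil transcripts gave yet another order. The monocyte and neutrophil list summed to 212, 962, 1202, 263 and 322 TPM, or 592 ± 457 TPM, and averaged 500 TPM without control 2 and 440 TPM without control 3. S100a9, a calcium-binding protein of neutrophils, stood at 82.1, 534, 707, 131 and 166 TPM and Retnlg, a secreted neutrophil protein, at 8.16, 101, 87.1, 12.9 and 14.5 TPM. Controls 2 and 3 were thus well above the other 3. The same 2 libraries were high in acute phase and inflammatory genes that were chosen after their values were seen. Saa1, serum amyloid A, stood at 2.13, 67.5, 47.3, 5.04 and 6.75 TPM, Il1b, interleukin 1 beta, at 21.5, 77.7, 107, 30.8 and 33.7 TPM and Lcn2, lipocalin 2, at 11.8, 49.1, 49.6, 12.8 and 16.2 TPM. Control 2 was also the library with high Icam1, Sele and Cxcl10, but control 3 was not. The part of neutrophils in those values was not tested.

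Other cell types left fainter traces. The stellate cell and fibroblast list summed to 387 ± 52.5 TPM, of which Ecm1, a matrix protein, held 259 ± 30.1 TPM. Its defining genes Lrat, Des and Pdgfrb averaged 1.21 ± 0.543, 2.39 ± 0.342 and 0.691 ± 0.184 TPM. Dcn, decorin, stood at 52.8, 61.3, 46.1, 98 and 64.8 TPM, and Tcf21, a stellate cell transcription factor, at 1.22, 0.618, 0.471, 3.09 and 1.13 TPM, both highest in control 4. The bile duct list summed to 276 ± 48.8 TPM, most of it from Spp1, osteopontin (247 ± 43.6 TPM), while Epcam averaged 6.35 ± 0.824 TPM and Sox9 1.33 ± 0.203 TPM. T and NK cell genes summed to 187 ± 30.5 TPM, led by Ccl5 (87.0 ± 17.8 TPM), B and plasma cell genes to 122 ± 26.6 TPM, led by Igkc (69.8 ± 14.9 TPM), and dendritic cell genes to 74.0 ± 9.91 TPM, most of it Zbtb46 (53.4 ± 8.52 TPM), which endothelium also expresses. Mural cell, mesothelial and platelet genes summed to 58.0 ± 17.5, 47.1 ± 12.1 and 31.6 ± 5.32 TPM. A mean of at least 10 TPM was reached by 4 of 15 stellate cell, 4 of 13 T and NK cell and 2 of 10 B and plasma cell genes. It was reached by 2 of 9 bile duct, 2 of 8 dendritic cell and 2 of 8 mural cell genes. For mesothelial and platelet genes it was 1 of 5 and 1 of 6. Among protein-coding genes 36.3% reached it, so in these small lists the counts are not far from that share.

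Pancreatic digestive enzymes were in 3 of the 5 libraries. This list was drawn up after its values were seen. Ctrb1, chymotrypsinogen B1, stood at 41.7, 0.0963, 55.8, 0 and 42.4 TPM, Cela2a, an elastase, at 35.4, 0.0755, 61.5, 0 and 37.3 TPM and Pnlip, pancreatic lipase, at 19.4, 0.0514, 32.5, 0 and 17.7 TPM. Controls 1, 3 and 5 thus held these transcripts and controls 2 and 4 held almost none. The estimated counts of 8 such enzymes summed to 2091, 9.74, 3504, 0 and 2167, and a count of 0 in control 4 allows up to 3 counts. The sinusoidal sum was 24019 TPM without controls 1, 3 and 5, against 23872 TPM in all 5, and the pan-endothelial sum was 14215 against 14379 TPM.

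**Figure D4:**
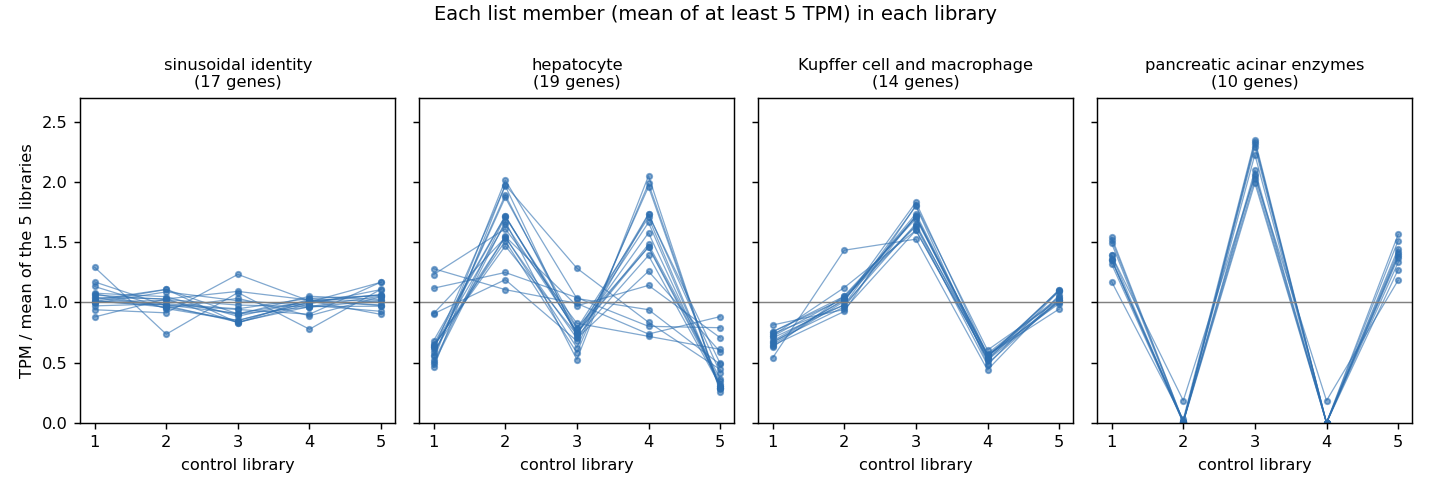
Each panel shows the members of a list with a mean of at least 5 TPM, as TPM divided by the mean of the 5 control libraries; lines only link the 5 values of a gene. Sinusoidal genes lie close to 1, all 14 macrophage genes peak in control 3, and the pancreatic enzymes are at or near 0 in controls 2 and 4.

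Most genes were measured with little spread. For 10156 genes with a mean of at least 5 TPM the median CV was 11.5%, the 10th percentile 5.74% and the 90th 24.6%. The pan-endothelial list had a median CV of 9.13% and the sinusoidal list 7.87%, whereas the hepatocyte list had 61.8%, the macrophage list 45.2% and the monocyte and neutrophil list 74.3%. A CV of at least 50% was found for 281 of the 10156 genes (2.77%) and for 187 of 9590 protein-coding ones. Without controls 1, 3 and 5 it was found for 214 genes. Those CVs come from controls 2 and 4 alone and cannot be set against CVs over all 5. Of these 187, control 2 was the highest library for 62, control 4 for 60 and control 3 for 53, and control 5 the lowest for 106, against shares of 19.4%, 4.33%, 12.2% and 9.69% of the 9590. The genes with the widest ratio of highest to lowest library, among those with a mean of at least 20 TPM and at least 10 estimated counts in every library, were Saa2, Saa1, Mup1, Mup9, Retnlg, Mup17, Hamp, Mup19, Mup16, S100a9, Cyp2c29 and Cyp2d9. All 12 are genes of hepatocytes, of the acute phase response or of neutrophils. The minimum in every library keeps out the pancreatic enzymes, which were at or near 0 in controls 2 and 4. Hamp, which encodes the iron hormone hepcidin, stood at 41.4, 125, 43.6, 50.9 and 11.9 TPM. At the other end, the steadiest genes above 100 TPM were Hsbp1, S100a16, Tmed9, Psme2, Tecr and Cdc37. Hsbp1, which binds heat shock factor 1, stood at 151, 150, 152, 149 and 153 TPM, a CV of 0.979%. The least variable endothelial member in the lists used was Gpihbp1, at 3309, 3281, 3432, 3484 and 3460 TPM, a CV of 2.72%.

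**Figure D5:**
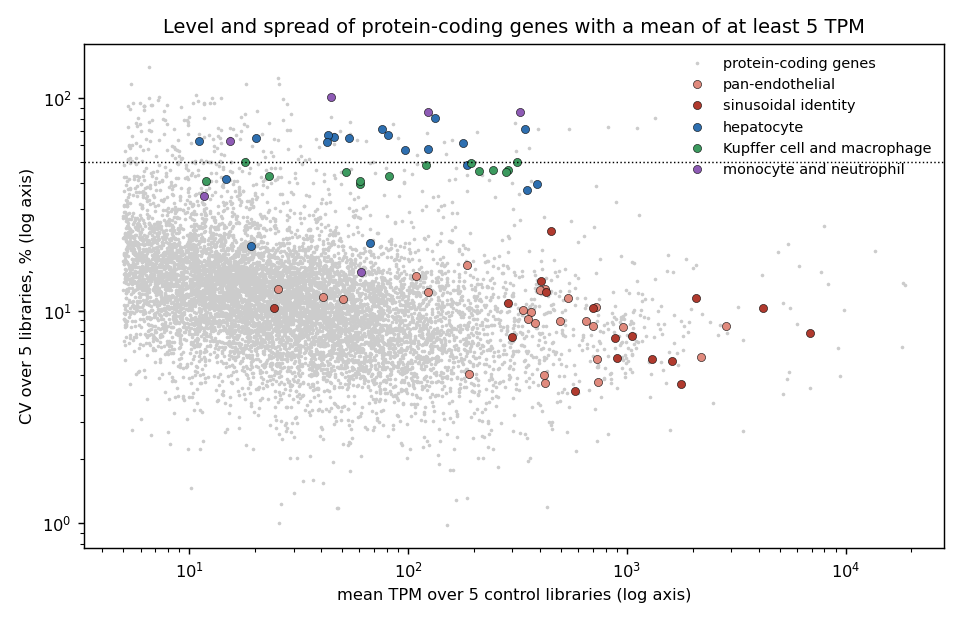
CV over the 5 control libraries against mean TPM (both axes log) for protein-coding genes with a mean of at least 5 TPM; coloured points are members of 5 lists and the dotted line marks a CV of 50%. Genes of both endothelial lists lie below the line, and most hepatocyte genes lie above it.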

How the data were processed

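The submitters' processing notes name Trim Galore 0.6.4, kallisto 0.4.6 and the build GRCm38.p6. For each library the authors deposited TPM and expected counts, that is, counts estimated per gene, with decimals. How transcripts were summed to genes, and on which annotation release, is not given in the sources used here. kallisto splits reads between near-identical transcripts, so values within the Mup, Cyp2c, Cyp2d, Ly6c, Hba, Hbb, Hspa1 and Saa families are uncertain. The same holds for overlapping and antisense genes.

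Symbols and coordinates came from GENCODE M21, by stable identifier, for 55144 of the 55385 genes listed. For the 5 control libraries the mean, SD, CV and rank of each gene were computed with pandas 2.3.3 in Python 3.11.15. CVs were computed for genes with a mean of at least 5 TPM. No test between groups was run. Dixon's criterion was applied to find values with 1 library far from the others, and a chi-square per degree of freedom was computed between libraries to look for repeated ones. An order of levels is given with the number of libraries that show it. TMM factors came from edgeR 4.0.16. The estimated counts summed to 23508079 to 23602771 per library, totals with a CV of 0.161%. Taken as read counts, they give a small counting error except for genes with few counts.

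The libraries and the 38 gene lists (499 genes, 44 in more than 1 list) were chosen with earlier results of these data known. Genes named are the 5 markers, the 20 highest genes, the 4 highest members and the lowest of each list and up to 2 members with a CV of at least 50%, the 12 most variable and the 6 steadiest genes. Some genes taken by this rule are not reported here, and further genes were picked for the text once their values had been seen. Alternatives were CPM from the counts, TMM scaling, TPM without mitochondrial genes, medians, other minimum levels and pseudocounts, and each library left out. The calculations were tested on simulated data.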

Additional observations from a re-analysis of the deposited data

Results flagged for a closer look

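In each of 237 values (named genes, list sums and library shares) the highest and lowest of the 5 libraries was set against the others, and in 13 of them, 5.49%, that library lay far outside the rest by Dixon's criterion. Chance flags about 1 in 20 independent groups, but these values overlap and some genes were named for their spread in these same libraries. The number therefore cannot be set against chance. Control 2 was the high library for 5 of them: Gja4 (728 TPM), Icam1 (337 TPM), Sele (16.7 TPM), Cps1, a urea cycle enzyme (11.2 TPM), and Junb, an immediate early factor (522 TPM). Control 4 was high in mt-Nd5 (2017 TPM), in the summed mitochondrially encoded mRNAs (132953 TPM) and in the mitochondrial share of TPM (13.9%), which are values of 1 quantity, and low in the chaperone Hspa8 (1479 TPM). Control 3 was high in Tpt1 (6545 TPM) and low in Aqp1 (5032 TPM) and Jun (268 TPM). Control 5 was high in the summed continuous capillary list (6727 TPM).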

How the results depend on the processing

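The counts of genes at 1, 10 and 100 TPM stayed within 1.5 times the main count under every alternative tried. The hepatocyte sum was 3498 TPM without controls 1, 3 and 5, a move of more than 1 SD, 1738 as CPM and 2569 TPM without mitochondrial genes. Leaving out 1 of 5 libraries cannot move a mean by 1 SD, and gave 1952 to 2584 TPM for hepatocyte and 1597 to 2181 TPM for macrophage genes. The alternative without controls 1, 3 and 5, and the removal of 5 pseudogenes, were chosen after the data were seen. Without mitochondrial genes the 10, 100 and 1000 highest genes held 11.1, 30.2 and 64.6%, and as CPM 8.20, 26.4 and 57.8%. The pan-endothelial sum was 29623 as CPM, 16170 TPM without mitochondrial genes and 17004 TPM without the pseudogenes too, and the sinusoidal sum 40232, 26847 and 28236. The median CV was 8.99% as CPM, 13.8% at a minimum of 1 TPM, 9.79% at 20 TPM, 8.41% without controls 1, 3 and 5, and 10.6 to 11.9% with each library left out. Genes with a CV of at least 50% numbered 1108 at a minimum of 1 TPM and 78 at 20 TPM. The number of macrophage genes with such a CV, 1 of 14, ran from 0 to 11 with each library left out: 10 without control 2, 0 without control 4 and 11 without control 5. It was 4 as CPM and 3 without controls 1, 3 and 5, where the hepatocyte number fell from 13 to 4. That alternative keeps only controls 2 and 4, the libraries with the highest hepatocyte sums. A CV over so few libraries cannot be set against a CV over all 5, so its CVs and counts do not show less spread. The median correlation was 0.934 with a pseudocount of 0.1, 0.989 over all genes and 0.974 at 10 TPM. No named gene moved by more than 1 SD with TMM scaling, and 76 did without mitochondrial genes. The TMM factors ran from 0.957 to 1.03, so this scaling could hardly move a mean over the same libraries and is no check of it. No paired analysis was possible because no groups were compared. Genes with a few counts per library have a large counting error.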

Other observations

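Genes of cell state add to the account of the control libraries. Immediate early and stress genes were high, with 9 of 16 averaging at least 100 TPM, a level that 6.66% of protein-coding genes reached. Jun, Dusp1 and Fos averaged 344 ± 43.0, 291 ± 28.9 and 163 ± 13.5 TPM, and Hspa1a, a heat shock protein with a near-identical copy, stood at 169, 58.7, 126, 158 and 174 TPM, lowest in control 2. Interferon response genes summed to 1898 ± 51.5 TPM, and their median CV was 11.8%, near the 11.5% of all genes with a mean of at least 5 TPM. Bst2, tetherin, averaged 1057 ± 65.8 TPM, while Mx1 averaged 1.14 ± 0.376 TPM. Cell cycle genes were led by Ccnd1, cyclin D1 (170 ± 33.2 TPM), and by replication factors such as Pcna (123 ± 9.58 TPM). Genes of mitosis were low, with Mki67 at 2.37, 1.38, 2.56, 1.90 and 3.63 TPM, and for 9 of the 10 cell cycle genes with a mean of at least 5 TPM control 5 was the highest library, as it was for 21.6% of such protein-coding genes.

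Clock genes differed in their order of libraries. Dbp, an output gene of the clock, stood at 22.9, 20.7, 18.1, 15.5 and 10.5 TPM and Tef, its relative, at 19.3, 9.70, 12.1, 10.7 and 6.85 TPM. Control 5 was the lowest library for 6 of the 9 clock genes with a mean of at least 5 TPM and control 1 the highest for 6. Among such protein-coding genes these shares were 9.69% and 42.5%. The Y-linked genes Ddx3y and Eif2s3y averaged 32.9 ± 3.37 and 27.7 ± 2.08 TPM and were present in all 5 libraries, and Xist was at 0 in 4 of 5 and at 0.0036 TPM in control 3.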
